A study of Mus musculus with 6 samples.

Results

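The genes described here encode intermediate filament proteins and nuclear lamins. They were chosen by name from a list of 9 (Des, Vim, Nes, Synm, Krt8, Krt18, Lmna, Lmnb1 and Lmnb2). Of these, 8 were found by symbol among the 16854 genes measured, and Krt18 was not analysed here. RNA came from C2C12, a mouse myoblast line whose confluent cells fuse into myotubes in low serum. All cells were kept for 3 days in 2% horse serum after confluence. The control group held 3 libraries from cells with a scrambled hairpin RNA, and the knockdown group held 3 libraries from cells in which Adamtsl2 was depleted by a stable hairpin; Adamtsl2 is the gene of a secreted matrix glycoprotein. The labels do not say whether replicates were separate cultures or whether the modified cells were single clones, so p-values measure the spread between these libraries, which may be technical.

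Intermediate filaments are ropes of coiled-coil dimers that give cells and nuclei mechanical strength. In skeletal muscle, desmin links the Z-discs of neighbouring myofibrils to each other, to the membrane and to nuclei, and it replaces much of the vimentin of proliferating myoblasts as they mature. Nestin and synemin assemble into filaments together with desmin or vimentin. Keratin 8 pairs with keratin 18 and is best known from simple epithelia. Lamins A and C, both made from Lmna, and the B-type lamins, made from Lmnb1 and Lmnb2, form the mesh that lines the inner nuclear membrane.

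Des and Nes, abundant in control cells, were 37.5-fold and 9.62-fold lower in knockdown cells. Vim and Synm were higher in the knockdown, both B-type lamin genes were lower, and Lmna did not pass the test. Krt8 was close to its detection limit. Of all 16245 genes tested with limma, 45.2% passed an adjusted p of 0.05, 21.7% higher and 23.5% lower in the knockdown. Of the 8 described genes, 2 were higher and 5 lower. Krt8 entered the test through its control values alone, and of the other 7 genes 2 were higher and 4 lower. The 2 groups did not overlap for 6 of these 7 genes, against 62.6% of all genes. The median log2 change of the 7 was -2.61, beside -0.00 for all genes tested. Changes were thus common across all genes. Without the third knockdown library, which stood apart as described next, 3 of the 8 were higher and 5 lower, where 78.5% of all genes passed, 38.6% higher and 39.9% lower. In bulk RNA fewer cells of a type cannot be told apart from less RNA per cell.

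The libraries held 37346439 to 50329438 reads. Adamtsl2 had normalised counts of 1325, 1266 and 1307 in the controls and 23.2, 21.7 and 7.83 in the knockdown. The third knockdown library stood apart: its log2 values correlated at 0.904 and 0.907 with those of the first and second, which correlated at 0.995 with each other, and the nuclear RNA Malat1 took 2.83% of its reads against 0.302 to 0.515% elsewhere. All 10 myotube markers examined were lower in the knockdown, beside 23.5% of all genes. Their summed normalised count was 1024926 to 1036888 in control and 3435 to 4850 in knockdown libraries. Of the 10, Actn2 met the filter through its control values, and the other 9 were all lower. Of 9 markers of dividing cells, 8 were lower, against the same 23.5%, with sums of 12995 to 13847 and 3372 to 3461. No analysed marker of either list was at 0 in all libraries.

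The promoters of Des, Nes and Vim, whose absolute levels per kb of exonic length differed most between the groups, are shown for their short motifs. By fold, Lmnb2 (9.73-fold lower) changed slightly more than Nes, and Vim (2.31-fold higher) changed least of the genes that passed. The promoters come from RefSeq (GRCm38.p6). The 250 bases before each start site were searched for 8 of the 9 names, Krt18 among them. Lmnb1 was left out of the search. Capitals mark the E-box letters CANNTG, the core read by muscle basic helix-loop-helix factors, and the TATA letters TATAAA. The sequences are chr1:75360042-75360291 for Des, chr3:87970843-87971077 for Nes and chr2:13574267-13574296 for Vim, all on the plus strand. The Nes run stops at the first annotated exon. The Vim window, 13574061 to 13574310, lies wholly past the annotated start of the Vim gene at 13573927. Only 30 bases around its match are shown.
Des: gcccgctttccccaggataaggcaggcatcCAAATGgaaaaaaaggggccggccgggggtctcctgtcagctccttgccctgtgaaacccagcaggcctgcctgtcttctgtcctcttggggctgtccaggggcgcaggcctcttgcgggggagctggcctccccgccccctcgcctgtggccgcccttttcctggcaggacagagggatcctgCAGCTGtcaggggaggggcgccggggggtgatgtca
Nes: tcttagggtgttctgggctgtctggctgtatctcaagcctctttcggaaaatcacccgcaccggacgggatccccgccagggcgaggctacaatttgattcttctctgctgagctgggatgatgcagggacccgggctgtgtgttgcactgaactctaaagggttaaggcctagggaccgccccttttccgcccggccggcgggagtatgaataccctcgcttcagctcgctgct
Vim: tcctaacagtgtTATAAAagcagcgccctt

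Des, which was far lower in the knockdown, held 2 E-boxes, CAAATG and CAGCTG, whose first bases lay 220 and 36 bases before the start site. Of 32851 mouse promoters of this length, 66.2% held CANNTG on either strand and 13% held CAGCTG, a subset of it. Nes, also lower, held no CANNTG, and Vim, which was higher, held none either. Vim held TATAAA with its first base 32 bases before the start site, as did 12.4% of promoters somewhere in the window. Des and Nes each held 2 copies of GGGCGG, read on the opposite strand and left in lower case; 32.7% of promoters held it. Of the other searched genes, Synm and Krt18 each held 1 CANNTG and Krt8 held 2. Lmnb2 held 4 and 1 at its 2 start sites, and Lmna held 0 at both of its own. The MEF2 site and the CArG box were found in none of these 3 windows, and in 2.92% and 1.47% of all promoters. A match is only a run of letters, and no binding was measured.

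Desmin RNA fell most. Des (ENSMUSG00000026208, GRCm38 chromosome 1, 75360329 to 75368579, plus strand) encodes the main filament protein of muscle. Its normalised counts were 146699, 152658 and 152164 in the controls, in replicate order as throughout, and 3834, 3688 and 4559 in the knockdown. The groups lay far apart, and the third knockdown library was the highest of its group. The log2 change was -5.23 ± 0.15, or 37.5-fold lower, with a limma adjusted p of 6.94e-06. Every error after a log2 change is a limma SE, from 3 libraries a group except where a library is said to be left out. An antisense gene, Gm15179, overlaps a Des exon, and reads of the 2 cannot be told apart because the strand setting is not given.

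Vimentin RNA moved the other way. Vim (ENSMUSG00000026728, chromosome 2, 13573927 to 13582826, plus strand) encodes the filament protein of mesenchymal cells and myoblasts. Its normalised counts were 102727, 103190 and 107109 in control and 230258, 242598 and 251125 in the knockdown. Every knockdown library was above every control library. The log2 change was 1.21 ± 0.21, or 2.31-fold higher (limma adjusted p = 0.00464).

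The balance of Des and Vim was reversed. On values divided by exonic length in kb, the ratio of Des to Vim was 1.80, 1.87 and 1.79 in control libraries and 0.0210, 0.0192 and 0.0229 in knockdown libraries. The mean ratio was 86.6 times larger in control. This ratio does not depend on how libraries were scaled to each other. All 10 myotube markers were lower in the same libraries, beside 23.5% of all genes, and their part in the Des and Nes results was not tested.

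**Figure D1:**
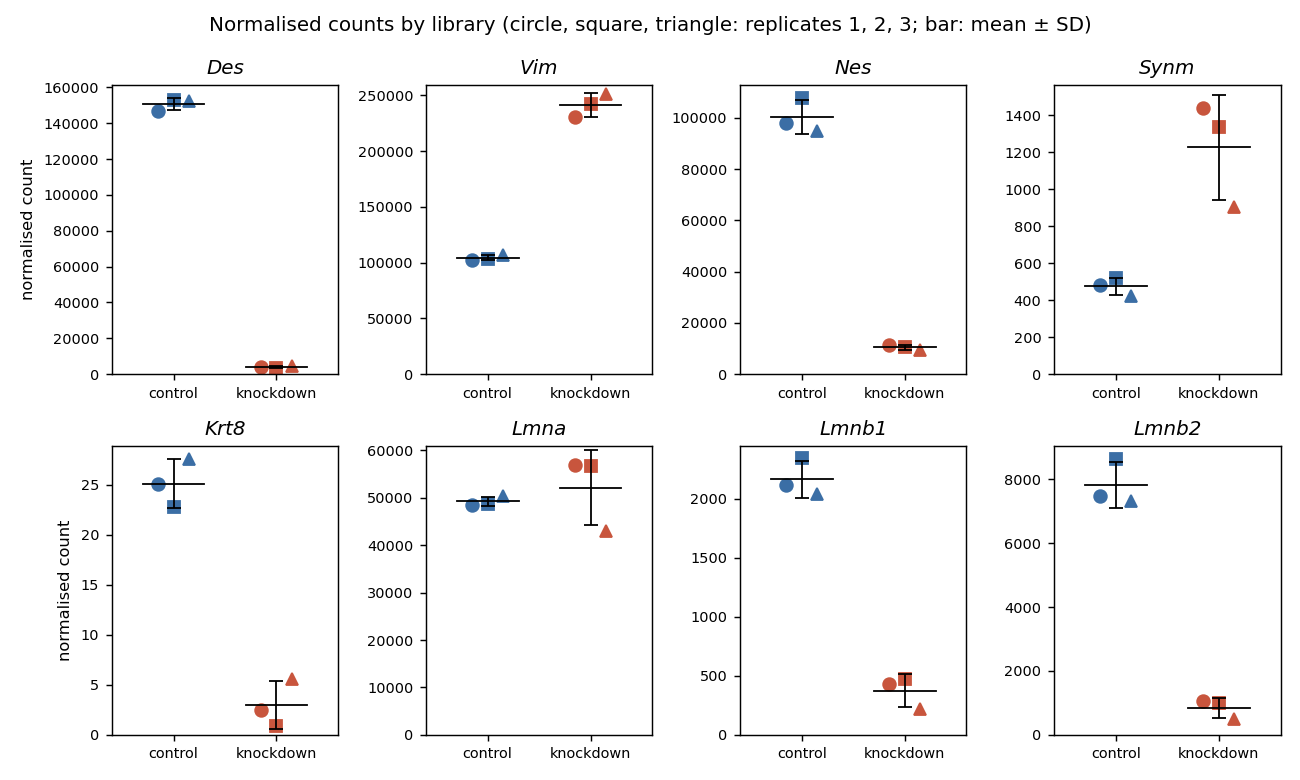
Normalised counts of the 8 genes in each library (y axis, linear, from 0), with control in blue and knockdown in red; circles, squares and triangles are replicates 1, 2 and 3, and bars are means ± SD. The 2 groups are separate in every panel except Lmna, where the third knockdown library (42971) lies below the controls and the first and second above them.

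Nestin RNA fell with desmin RNA. Nes (ENSMUSG00000004891, chromosome 3, 87971078 to 87980451, plus strand) encodes a large filament protein of progenitors and young myotubes that needs a partner to assemble. Its normalised counts were 98110, 107958 and 94965 in control and 11262, 10757 and 9315 in the knockdown. The groups did not overlap and the values within each were close. The log2 change was -3.27 ± 0.16, or 9.62-fold lower (limma adjusted p = 3.73e-05).

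Synemin, which anchors desmin and vimentin filaments to membrane complexes, was the second filament gene with more RNA in the knockdown. Synm (ENSMUSG00000030554, chromosome 7, 67730160 to 67759742, minus strand) had normalised counts of 479, 518 and 425 in control and 1438, 1335 and 904 in the knockdown. The third knockdown library was the lowest of its group yet above every control. Synm was 2.54-fold higher, at a log2 change of 1.35 ± 0.21 (limma adjusted p = 0.00313). Exons of Ttc23 and Gm45102 overlap Synm on the opposite strand. Ttc23 itself had 684 to 799.5 normalised counts in control and 674 to 770.2 in the knockdown, where the ranges overlapped.

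Keratin 8 RNA was scarce in both groups. Krt8 (ENSMUSG00000049382, chromosome 15, 101996698 to 102004482, minus strand) had 23, 18 and 29 reads in control and 3, 1 and 5 in the knockdown, or 25.1, 22.7 and 27.6 and 2.49, 0.836 and 5.59 normalised counts. Scaled by the libraries' size factors, the 70 control reads were 9.28 times the 9 knockdown reads (95% exact interval 4.62 to 21.1, counting error alone). The ratio was 15.2 without the third knockdown library. The fitted log2 change was -2.90 ± 0.53 (limma adjusted p = 0.00592). It was -1.96 with a pseudocount of 5 and -3.81 in edgeR without the third knockdown library. Krt8 shares 98.6% of 941 aligned bases with its processed pseudogene Krt8-ps, so some reads may belong to that copy.

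Of 13 markers of simple epithelium, 3 were analysed here (Cdh1, Grhl1 and Elf3), and their summed normalised count was 92.6 to 114 in control and 68.6 to 86.2 in knockdown libraries. Elf3 was lower but entered the test through its control values alone. The other 2 did not pass, and none of the 3 was at 0 in all libraries. E-cadherin, from Cdh1, had 14.3 to 25.3 and 24.3 to 33.2 normalised counts.

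**Figure D2:**
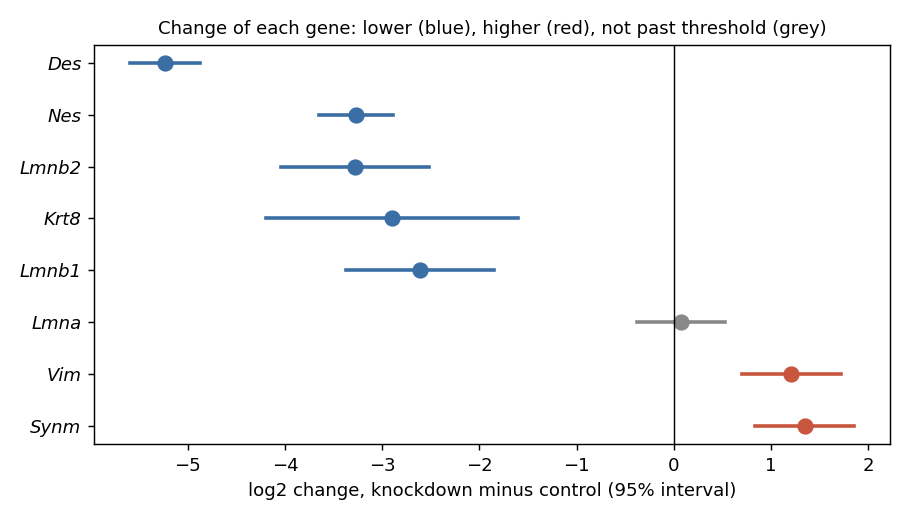
Log2 change between knockdown and control (x axis) for each of the 8 genes, with the 95% interval of the limma fit as a line. Des lies furthest to the left at -5.23, Vim and Synm lie to the right of 0, and the interval of Lmna, -0.38 to 0.52, includes 0.

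Lmna, the gene of lamins A and C, did not pass the test. Lmna (ENSMUSG00000028063, chromosome 3, 88480147 to 88509956, minus strand) had normalised counts of 48590, 48802 and 50408 in control and 56930, 56624 and 42971 in the knockdown. The first and second knockdown libraries were above every control and the third was below them all. The log2 change was 0.07 ± 0.18 (95% interval -0.38 to 0.52, limma adjusted p = 0.781). Without the third knockdown library it was 0.20 ± 0.05 and passed (adjusted p = 0.00434), so this library decides the call. Counts per gene do not separate lamin A from lamin C.

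Both B-type lamin genes were lower in the knockdown. B-type lamins stay attached to the nuclear membrane by a permanent lipid anchor, and their genes are expressed in most cells. Lmnb1 (ENSMUSG00000024590, chromosome 18, 56707813 to 56753424, plus strand) had normalised counts of 2116, 2344 and 2043 in control and 434, 473 and 216 in the knockdown. The third knockdown library was the lowest, and no knockdown value reached a control value. Lmnb1 changed by a log2 value of -2.61 ± 0.31, or 6.10-fold lower (limma adjusted p = 0.00107).

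Lmnb2 (ENSMUSG00000062075, chromosome 10, 80901203 to 80918245, minus strand) encodes lamin B2. It had normalised counts of 7472, 8641 and 7321 in control and 1058, 990.4 and 487 in the knockdown. Here too the groups did not overlap and the third knockdown library was lowest. Lmnb2 was 9.73-fold lower, at a log2 change of -3.28 ± 0.31 (limma adjusted p = 0.000432). Without the third knockdown library the log2 changes were -2.25 ± 0.07 for Lmnb1 and -2.93 ± 0.07 for Lmnb2. With all libraries, 8 of 9 markers of dividing cells were lower, beside 23.5% of all genes. Among them was Mki67, a proliferation antigen, at a log2 change of -2.93 ± 0.30. Cdk1 did not pass (-0.38 ± 0.24, limma adjusted p = 0.250). Without the third knockdown library all 9 were lower, as were 39.9% of all genes. The part of cell division in the fall of B-type lamins was not tested.

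The lamin mix was shifted towards Lmna. Per kb of exonic length, Lmna exceeded the sum of Lmnb1 and Lmnb2 by ratios of 3.39, 2.98 and 3.60 in control libraries and 24.8, 24.8 and 39.5 in knockdown libraries. The mean ratio was 3.32 ± 0.32 (SD, n = 3) in control and 29.7 ± 8.45 (SD, n = 3) in the knockdown. The summed level per kb of the 3 lamin genes was 10993 ± 196 in control and 9261 ± 1484 in the knockdown.

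Levels can be ranked between genes on the scale per kb of exonic length. In control the order was Des (40092 ± 881 normalised counts per kb), Vim (21999 ± 508), Nes (15640 ± 1057), Lmna (8439 ± 170), Lmnb2 (1823 ± 168), Lmnb1 (732 ± 53.1), Synm (59.7 ± 5.90) and Krt8 (12.8 ± 1.23). No neighbours in that order overlapped. In the knockdown the order was Vim (50881 ± 2212), Lmna (8937 ± 1366), Nes (1628 ± 157), Des (1073 ± 124), Lmnb2 (197 ± 72.7), Synm (155 ± 35.7), Lmnb1 (126 ± 46.7) and Krt8 (1.52 ± 1.23). There the ranges of Lmnb2, Synm and Lmnb1 overlapped between neighbours, so their order is not resolved.

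The makeup of the cytoplasmic filament RNA was described on the same scale. Of the summed level per kb of Des, Vim, Nes, Synm and Krt8, Des made up 51.5% ± 0.389 (SD, n = 3) in control and 1.99% ± 0.180 in the knockdown. Vim rose from 28.3% ± 0.781 to 94.7% ± 0.383 of that sum. Nes went from 20.1% ± 1.12 to 3.04% ± 0.405. The sum itself was 77804 ± 1620 per kb in control and 53737 ± 2122 in the knockdown, so the rise of Vim was smaller than the combined fall of Des and Nes. No share of RNA gives the amount of protein.

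**Figure D3:**
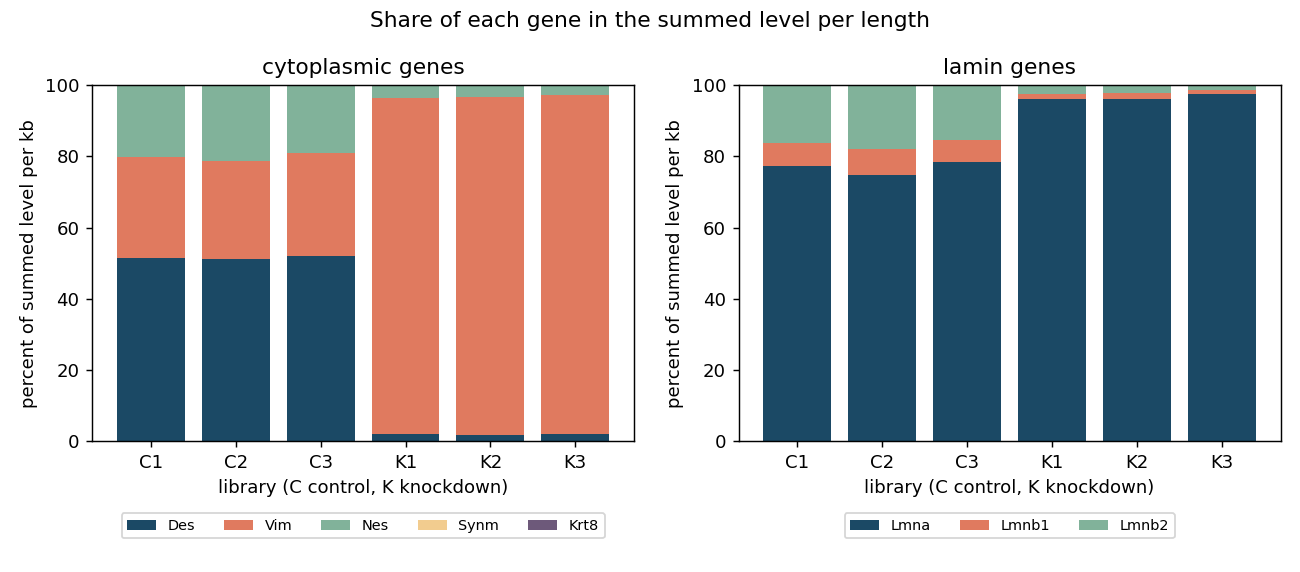
Share of each gene (y axis, percent) in the summed level per kb of the cytoplasmic genes (left) and the lamin genes (right) in each library, with C for control and K for knockdown. Vim fills at least 94.3% of each left bar in the knockdown and a mean of 28.3% in control; Synm and Krt8 are too small to see.

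Of 22 other cytoplasmic filament genes listed, 9 were analysed here; 3 were higher, 3 lower and 3 did not pass, beside 45.2% of all genes called, with a median log2 change of -1.39. Prph, Nefh and Krt7 entered the test through 1 group alone. Over the other 6 genes, 2 were higher and 1 lower, with a median of -0.67. Leaving out the third knockdown library gave 3 of the 9 higher and 6 lower, where 78.5% of all genes passed. Krt14, a keratin of basal epithelium, had 33.8, 32.8 and 30.4 normalised counts in control and 1915, 2057 and 2691 in the knockdown (log2 change 6.04 ± 0.18, limma adjusted p = 8.19e-06). Its usual partner Krt5 was not analysed here. Prph, the gene of the neuronal filament protein peripherin, had 1 read in the controls together and 183 in the knockdown, a ratio of 153 (95% counting interval 27.2 to 6089).

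The lower genes of that list included Iffo1, a filament-like protein of the nucleus, with a log2 change of -3.19 ± 0.15 from 18394 ± 371 (SD, n = 3) normalised counts in control. Nefh, the heavy neurofilament subunit, fell by 2.67 ± 0.33 on the log2 scale from 30.9 ± 2.68 normalised counts. It had 4 or 5 reads in each knockdown library. Krt7 was the other lower gene (-2.68 ± 0.50, with 1 to 4 reads in a knockdown library) and Iffo2 the other higher one (0.86 ± 0.14). Krt7 and Iffo2 were named after their values were seen, as were Syne3, Tmem43, Cryab, Hspb1 and Zmpste24 in the lists that follow.

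Of 18 linkers and chaperones of filaments listed, 15 were analysed here; 2 were higher, 7 lower and 6 did not pass, against 45.2% of all genes called, with a median of -0.31. Ppl and Evpl, both plakin genes, entered the test through 1 group alone, and of the other 13 genes 1 was higher and 6 were lower. With the third knockdown library left out, 7 of the 15 were higher and 7 lower, against 78.5% of all genes. Ppl, the gene of periplakin, a plakin that joins keratin and vimentin filaments to cell junctions, had 4.36 to 9.50 normalised counts in control and 4878, 4735 and 1789 in the knockdown. Its log2 change was 8.72 ± 0.48 (limma adjusted p = 6.21e-05). Pkp2, a desmosomal plakophilin, was higher by 1.01 ± 0.11, whereas its relatives Pkp1 and Pkp4 fell, with log2 changes of -4.08 ± 0.32 and -2.14 ± 0.20. Plec, the gene of plectin, the main linker of desmin to Z-discs, did not pass (log2 change -0.15 ± 0.35, limma adjusted p = 0.754). Its first and second knockdown libraries were above every control and the third was below them all. Without the third knockdown library Plec was higher by 0.21 ± 0.08 and passed (limma adjusted p = 0.0422). The small heat shock proteins that protect desmin were lower, with log2 changes of -2.01 ± 0.20 for Cryab and -1.83 ± 0.19 for Hspb1.

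Among the nuclear envelope partners of lamins, 24 were analysed here; 4 were higher, 10 lower and 10 did not pass, with a median of -0.61 and 45.2% of all genes called. Mlip and Nup210 entered the test through their control values alone. Over the other 22 genes, 4 were higher and 8 lower, with a median of -0.44. Both counts depended on single libraries. The 24 genes gave 7 higher and 13 lower without the third knockdown library, where 78.5% of all genes passed, and 2 higher when any other single library was left out. The lower count was 6 without the first or the third control library. The higher ones were Syne2 (2.79 ± 0.30) and Syne3 (1.90 ± 0.53), nesprins that connect the nucleus to the cytoskeleton, the lamina-associated protein gene Tor1aip1 (0.81 ± 0.17) and Tmem43 (0.89 ± 0.27). Syne3 had 999, 1028 and 813 normalised counts in control and 5564, 5293 and 1476 in the knockdown, and its log2 change was 2.53 ± 0.09 without the third knockdown library, the lowest of its group. Plpp7 and Tmem38a, membrane proteins abundant in muscle, fell, with log2 changes of -5.27 ± 0.19 and -4.52 ± 0.13. Emd, the gene of emerin, which binds lamin A, did not pass (0.00 ± 0.19, 95% interval -0.45 to 0.46). Its normalised counts were 2420, 2263 and 2482 in control and 2718, 2744 and 1833 in the knockdown. As for Lmna, the first and second knockdown libraries were above every control and the third was below them all. Emd was higher by 0.19 ± 0.05 and passed when the third was left out (limma adjusted p = 0.00765).

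The 6 genes listed for lamin processing gave no call at an adjusted p of 0.05 in limma, while 3 had an unadjusted p under that value. edgeR called 1 higher and 0 lower, and DESeq2 called 1 higher and 2 lower. Narf, a prelamin A binding factor and the most abundant of the list by normalised count, had a log2 change of -0.74 ± 0.26 (adjusted p = 0.0633). Zmpste24, the protease that matures prelamin A, had one of 0.62 ± 0.23 (adjusted p = 0.0692). Without the third knockdown library, 3 of the 6 were higher and 2 lower, beside 78.5% of all genes called.

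**Figure D4:**
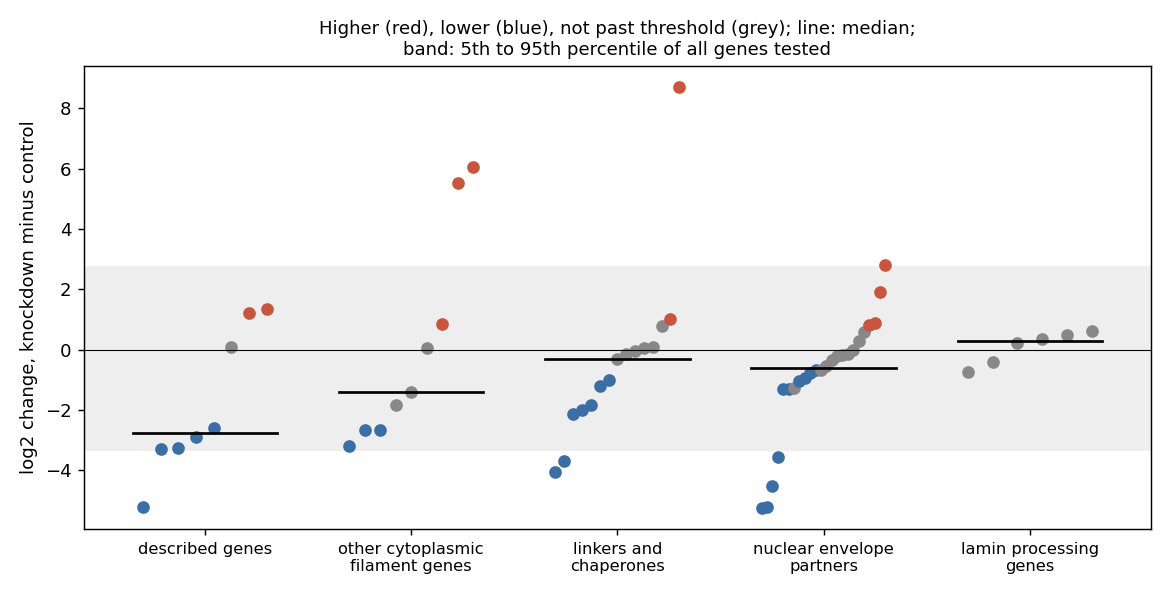
Log2 change (y axis) of every tested gene of the described set and of 4 lists of partner genes, with red for higher, blue for lower and grey for genes not past the threshold; lines are medians and the band runs from the 5th to the 95th percentile of all 16245 genes (-3.33 to 2.73). Des, Plpp7 and Tmem38a are among the points below the band, and Krt14, Prph and Ppl among those above it.

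Markers of other cell types gave no uniform picture. Of 5 fibroblast markers analysed here, 2 were higher, Dcn (4.22 ± 0.31) and Postn (1.81 ± 0.23), beside 21.7% of all genes higher. The 5 had a summed normalised count of 474643 to 502602 in control and 317987 to 476405 in the knockdown. Col3a1 made up most of this sum in control (457882 to 484948). It had 362051, 356900 and 145200 in the knockdown, where Dcn had 68597, 69622 and 145067. Lum (-0.29 ± 0.13) and Col3a1 (-0.81 ± 0.44) did not pass, although every knockdown library was below every control. With the third knockdown library left out, 3 of the 5 were higher and 2, Lum and Col3a1, were lower, where 78.5% of all genes passed. Vim is also a mesenchymal gene; the part of such cells in its rise was not tested. The summed normalised counts of neural and glial markers were 207 to 271 and 143 to 589, of endothelial markers 6.32 to 6.65 and 18.2 to 90.5, and of leukocyte markers 68.6 to 97.9 and 55.5 to 69.4. Of these, 1 of 3 neural, 0 of 1 tested endothelial and 1 of 2 leukocyte markers were lower, beside 23.5% of all genes. The endothelial one tested, Tek, was higher but entered the test through its knockdown values alone. The lower leukocyte one, Itgam, entered through its control values alone. Elavl3, a neural marker that did not pass, also met the filter through its control values. None of these markers was at 0 in every library.

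In the authors' deposited table the log2 fold changes were -5.22 for Des, -3.26 for Nes, 1.21 for Vim, 1.37 for Synm, -2.53 for Lmnb1 and -3.21 for Lmnb2. The same authors' deposited table gives Krt8 -3.15, where the limma fit gave -2.90, and Lmna 0.08 with an adjusted p of 0.697.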

How the data were processed

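Poly(A) RNA of 6 libraries was sequenced as paired reads of 150 bp, per the labels' protocols. The submitters' processing notes name the build GRCm38, DESeq2, Subread 1.5.2 with featureCounts, and Trimmomatic 0.36. Aligner, annotation release and strand setting: not given in the sources used here. In the table, the deposited signal per gene and library is a count that the authors divided by a size factor per library. The authors' deposited log2 fold changes and p-values, per the file headers, are quoted only where named. All values were whole multiples of 1 read (tolerance 0.01), so reads were recovered.

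limma 3.58.1 (R 4.3.3) with a mean-variance trend was fitted to log2(value + 1) of genes with at least 10 in at least 3 libraries, with Benjamini-Hochberg adjustment over all 16245 genes, two-sided, at 0.05. On this scale the change of a low gene is understated. With 3 against 3 libraries an exact permutation test of 1 gene cannot go below 0.1, so none is given. Exonic lengths, positions and overlaps came from GENCODE M21 (16806 genes matched). The members and lists were chosen with earlier results of these data known. Genes named are the 8 members, Adamtsl2, and up to 2 per direction of each partner list with the smallest adjusted p (if none passed, the most abundant gene); marker lists are given by sums, with single markers named after their values were seen, as were Plec and Emd. No 2 libraries agreed within sampling noise (chi-square per gene at least 3.76). The procedure was tested on reads simulated with the spread of the control libraries. That test did not cover a library that stands apart, as the third knockdown library does. Alternatives were other filters, pseudocounts, scalings and tools (edgeR 4.0.16, DESeq2 1.42.0), a replicate block, and each library left out. The planned Krt8 to Krt18 ratio was not analysed here.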

Additional observations from a re-analysis of the deposited data

How the results depend on the processing

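Of 135 values of the 8 described genes under the alternatives, 133 kept their direction and side of the threshold; both exceptions were Lmna without the third knockdown library, higher by 0.20 in limma and by 0.22 in edgeR. For the 13 named partner genes, 216 of 219 did so and 3 newly passed. Leaving out 1 library gave 2 to 3 described genes higher and 5 lower, 7 to 20 partner genes higher and 15 to 28 lower (9 and 20 with all libraries), and 2443 to 6269 of all genes higher and 2648 to 6485 lower. The highest counts came without the third knockdown library, where edgeR called 6489 genes higher, 6459 lower and 20 partner genes higher. With upper quartile scaling the median of all genes moved to 0.11, and no described gene changed direction. A replicate block gave 3010 genes higher and 3301 lower, and still 2 and 5 described genes. The labels do not say that equal numbers are pairs, so the main fit used no block. Same-numbered libraries deviated together at correlations of 0.02, 0.10 and 0.14, and differently numbered ones at -0.15 to 0.12. Not every library correlated best with its own number. Not divided by length, Des over Vim was 1.44 in control and 0.0167 in the knockdown, and Lmna over B-type lamins 4.96 and 46.0. Leaving out 1 library, Des over Vim was 1.80 to 1.84 and 0.0201 to 0.0220, and Lmna over B-type lamins 3.18 to 3.49 and 24.8 to 32.1. Krt8, with 1 to 29 reads in a library, is the described gene most limited by depth.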
